A study of Mus musculus with 8 samples.

Results

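The glycolytic enzymes described here are 10 genes, Hk1, Hk2, Gpi1, Pfkl, Pfkp, Pfkfb3, Aldoa, Gapdh, Pkm and Ldha. They were chosen by gene name, as every non-control probe that carries one of these names in the scanner files. This gave 33 probes for 10 genes, of 56605 probes and 36589 gene names on the array. All 10 genes had at least 1 probe bright enough to be tested, among 22509 genes tested in all.

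Magnetic beads were used to sort CD11b+ cells, which carry an integrin of microglia and other myeloid cells, out of the brains of male C57BL/6N mice aged 7 days. The LPS group had been injected with lipopolysaccharide (LPS), the cell wall endotoxin of Gram-negative bacteria, 24 h before the cells were taken. The saline group had been injected with saline and sampled at the same time. Each group consisted of 4 tubes, each tube pooled the brains of 2 mice, and 50 ng of RNA per tube was hybridised to 1 single-colour array. The sort selects on a surface protein shared by microglia, border macrophages, monocytes and neutrophils, so each array reads a mixture. The spread between arrays is that between pools, not between single mice.

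Glycolysis splits glucose into pyruvate in the cytosol and yields ATP and NADH without oxygen. Hexokinases trap glucose as glucose 6-phosphate, an isomerase and phosphofructokinase turn it into fructose 1,6-bisphosphate, aldolase cleaves that sugar, and the later enzymes recover ATP and end at pyruvate kinase. Lactate dehydrogenase then reduces pyruvate to lactate and returns NAD+. In macrophages and microglia, stimulation of the LPS receptor is known to raise glucose use and lactate release, in part through the transcription factor HIF-1.

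Values are log2 processed signals minus the 75th percentile of their array, called the normalised signal below, and a change is the mean of the LPS arrays minus the mean of the saline arrays with its standard error (SE). A gene was called changed at an adjusted p under 0.05 (limma, Benjamini-Hochberg over all tested genes). The share of probes well above background was 58.6% to 63.2% on LPS arrays and 61.9% to 66.0% on saline arrays, with median processed signals of 11.7 to 17.3 for LPS and 15.5 to 21.5 for saline. Microglial markers were well above background on every array in both groups.

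After LPS, Gapdh, Pkm, Ldha and Aldoa were called higher at their brightest probes, by 1.95, 1.75, 1.69 and 1.42-fold. Pfkl was called lower at its brightest probe, which lists no RefSeq mRNA, and higher at its other tested probe, which does. Hk1, Hk2, Gpi1, Pfkp and Pfkfb3 were not called at their brightest probes, though 2 other probes of Gpi1 were called higher. Counted at the brightest probes, 4 of the 10 enzymes were called higher and 1 lower. That 1 is Pfkl, whose direction depends on the probe read. Of all tested genes, 27.8% were called higher, 21.5% lower and 49.3% in either direction. The LPS and saline arrays did not overlap for Gapdh, Pkm, Ldha and Aldoa, with LPS on top, a separation found for 25.8% of all tested genes (18.9% had LPS below saline without overlap, 44.7% either way). The share of enzymes called is close to the share of all genes called, so the count alone says nothing particular about these 10. In bulk samples like these, more cells of a type and more RNA per cell cannot be told apart. The median change over the 10 was 0.24, against 0.02 over all tested genes.

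**Figure D1:**
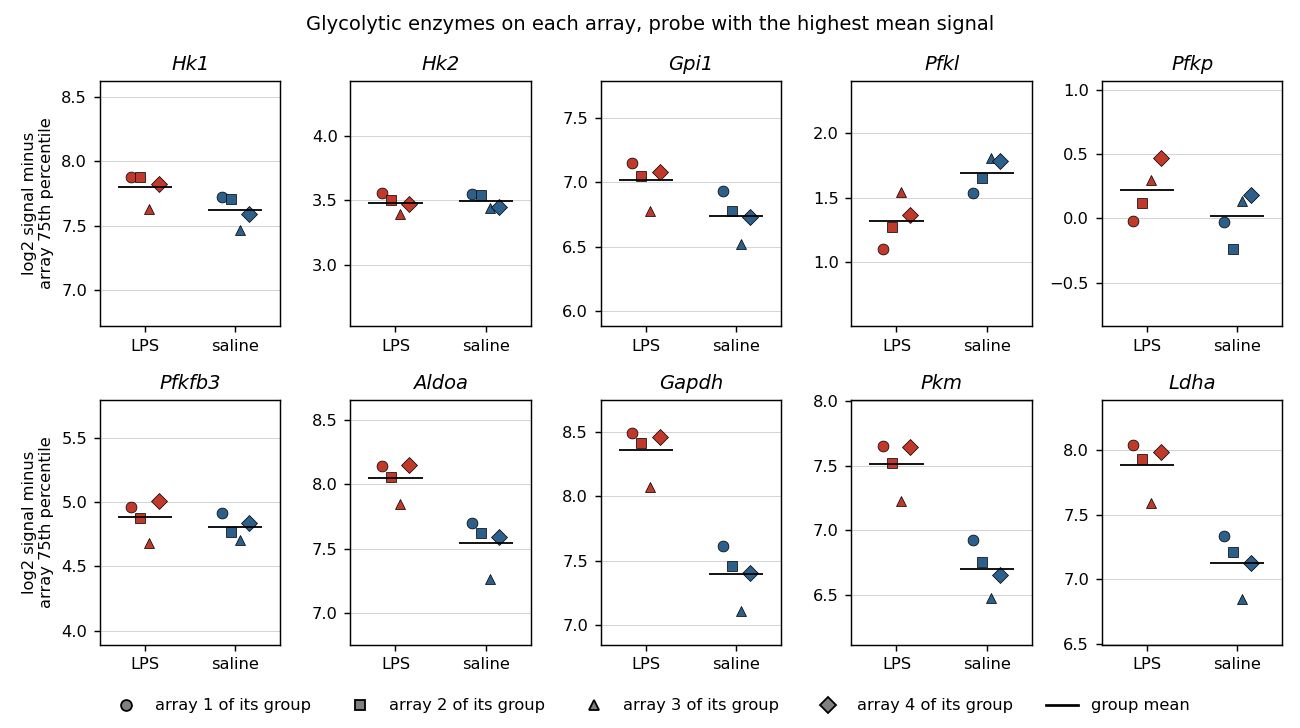
Normalised signal (log2 signal minus the array's 75th percentile) of each enzyme on the 4 LPS arrays (red, left) and the 4 saline arrays (blue, right), at the probe with the highest mean signal. Symbols tell arrays 1 to 4 of each group apart, lines are group means, and every panel spans the same height. The groups stand apart for Aldoa, Gapdh, Pkm and Ldha, and array 3 of each group lies lowest in most panels.

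At the first step neither Hk1 nor Hk2 was called. Hk1, the hexokinase of most tissues, which docks on mitochondria, read 7.88, 7.88, 7.63 and 7.82 on the LPS arrays, against 7.72, 7.71, 7.47 and 7.59 on the saline arrays. Only 3 of the 4 LPS arrays lay above all saline arrays, and the change of 0.18 ± 0.09 (SE, n = 4 per group) had an adjusted p of 0.134 in limma. Its interval reaches from -0.03 to 0.39 (95%). Leaving out LPS array 3 gave 0.24 (adjusted p = 0.0440). Of the 4 Hk1 probes tested none was called, and their changes ran from -0.15 to 0.38. With slide column as a block, which sets each LPS array against the saline array beside it, Hk1 was called higher (adjusted p = 0.0288), and its change within the 4 columns was 0.16 to 0.23. It was also called higher with array weights (0.23, adjusted p = 0.0140), but called lower with cyclic loess (-0.19, adjusted p = 0.0110).

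Hk2, the hexokinase that insulin and hypoxia induce in other tissues, read 3.55, 3.50, 3.39 and 3.47 on the LPS arrays, against 3.55, 3.54, 3.44 and 3.44 on the saline arrays. The groups lay on top of each other, with a change of -0.01 ± 0.07 (SE) at an adjusted p of 0.882 and an interval from -0.17 to 0.15. Within an array the log2 difference of Hk2 and Hk1 was 0.19 lower after LPS (SE 0.05, exact permutation p = 0.0286, adjusted over 4 pairs 0.0286, the smallest p that 4 against 4 arrays allow). This difference took Hk1 at its brightest probe, which lists no RefSeq mRNA. At the brightest Hk1 probe that lists one, the difference was 0.14 higher instead and the groups overlapped (adjusted exact permutation p = 0.419).

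Gpi1, the glucose 6-phosphate isomerase that also acts as a secreted cytokine, read 7.15, 7.05, 6.78 and 7.08 on the LPS arrays, against 6.93, 6.78, 6.52 and 6.73 on the saline arrays. The change of 0.27 ± 0.12 (SE) missed the threshold (adjusted p = 0.0804, limma). Leaving out LPS array 3 gave 0.35 (adjusted p = 0.0225) and leaving out saline array 1 gave 0.34 (0.0497). With slide column as a block the adjusted p was 0.0096, and the change within columns was 0.21 to 0.34. Of its 4 probes 2 were called higher, and all lay between 0.18 and 0.33. The brightest pair of Gpi1 probes overlap by 56 bases on chromosome 7 and differ there by 1 base. The stretch around it is shown because near-identical probes fell on opposite sides of the threshold, at 0.27 ± 0.12 for the first and 0.33 ± 0.11 for the second. The capital marks the base that differs (G16T, counted from the 5′ end of the stretch).
Gpi1 probe A_55_P2022434, 30 bases: atgttgttctgacctGtatttcacacccca
Gpi1 probe A_55_P2030433, 30 bases: atgttgttctgacctTtatttcacacccca

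Phosphofructokinase, the committed step, gave the least uniform readings. Pfkl is the liver-type subunit, and its brightest probe read 1.10, 1.27, 1.55 and 1.37 on the LPS arrays, against 1.53, 1.65, 1.81 and 1.78 on the saline arrays. LPS array 3 reached just past saline array 1, and every other LPS array lay below all saline arrays. This probe was called lower, by -0.37 ± 0.11 (SE, adjusted p = 0.0250, limma). The call was lost without LPS array 1, LPS array 2, saline array 3 or saline array 4, at changes of -0.36 to -0.30. The other tested Pfkl probe, the only 1 of the gene that lists RefSeq mRNAs, read 1.74, 1.61, 1.37 and 1.78 on the LPS arrays, against 1.34, 1.25, 1.10 and 1.29 on the saline arrays. There the groups did not overlap and the change was 0.38 ± 0.11 (adjusted p over probes 0.0219). The probes lie on chromosome 10 of mouse build mm9, in the files' coordinates, at chr10:77470357-77470416 on the minus strand for the first and chr10:77450926-77450985 on the minus strand for the second. The first lists only an Ensembl transcript. An untested Pfkl probe at chr10:77463425-77463467 on the minus strand matches part of the 250 bases before the RefSeq start site of Pfkl. The first probe lies further upstream, so it lies outside the transcript that begins there. Both 60-base probes are shown because the direction given for Pfkl depends on which of them is read.
Pfkl probe A_55_P2934717: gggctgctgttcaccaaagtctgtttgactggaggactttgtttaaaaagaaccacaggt
Pfkl probe A_51_P310896: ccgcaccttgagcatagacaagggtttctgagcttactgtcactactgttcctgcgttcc

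Pfkp, the platelet-type subunit, read -0.02, 0.12, 0.30 and 0.47 on the LPS arrays, against -0.03, -0.24, 0.14 and 0.19 on the saline arrays. The groups overlapped and the change was 0.20 ± 0.14 (SE, adjusted p = 0.239, limma). None of its 4 tested probes was called, and they ranged from -0.37 to 0.20. Within an array Pfkp over Pfkl was 0.57 higher after LPS on the brightest probes (SE 0.10, adjusted exact permutation p = 0.0286) and 0.17 lower on the RefSeq probes (adjusted exact permutation p = 0.429). The sign of the Pfkp to Pfkl difference therefore changed with the Pfkl probe.

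Pfkfb3 makes fructose 2,6-bisphosphate, the activator of phosphofructokinase, and is induced by hypoxia and inflammation in other cells. It read 4.96, 4.88, 4.68 and 5.01 on the LPS arrays, against 4.91, 4.76, 4.71 and 4.84 on the saline arrays. The groups overlapped, with a change of 0.08 ± 0.09 (SE, adjusted p = 0.513, limma) and an interval from -0.14 to 0.29. Its second probe, which spans a splice junction, gave 0.10 ± 0.11. Neither probe was called.

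**Figure D2:**
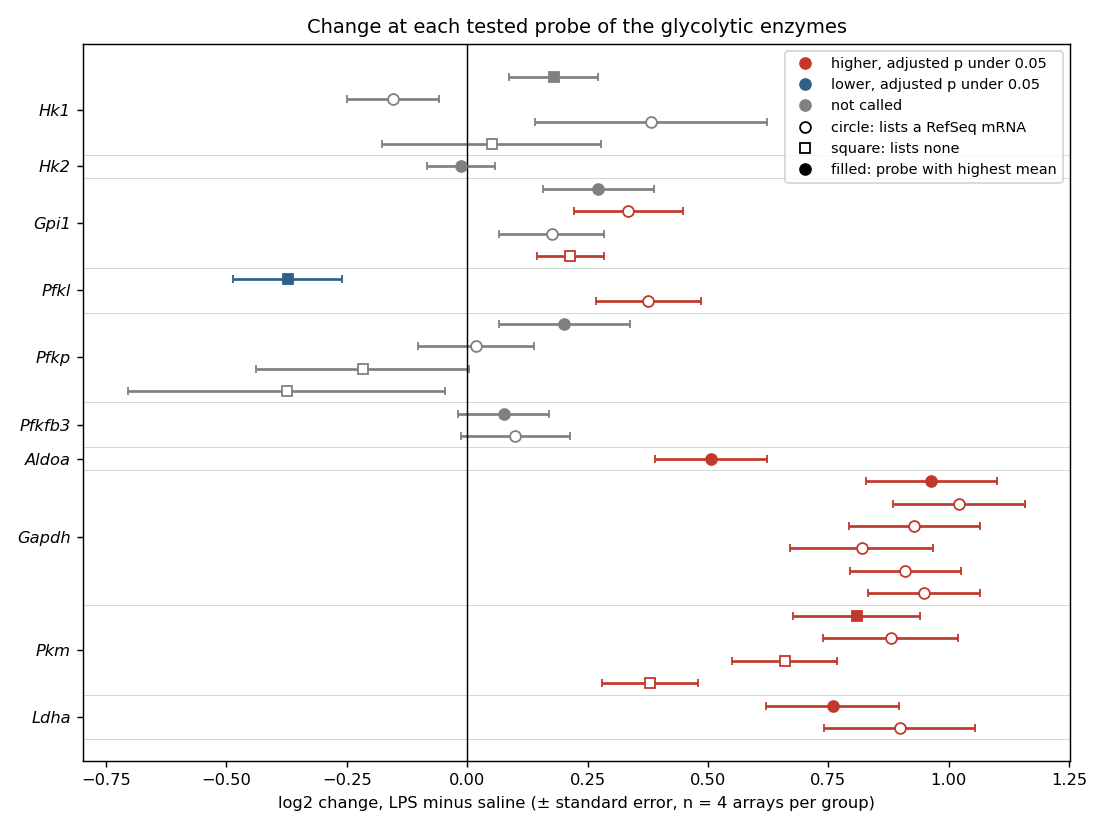
Change (LPS minus saline, log2, ± SE, n = 4 arrays per group) at each of the 30 probes that passed the filter on dim probes, by gene. Red probes were called higher, blue lower and grey neither. All probes of Aldoa, Gapdh, Pkm and Ldha are red, and the Pfkl probes stand on opposite sides of 0.

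Among the enzymes chosen here, those from aldolase on were called higher. Aldoa, the aldolase of muscle and most other cells, cleaves fructose 1,6-bisphosphate and read 8.14, 8.06, 7.85 and 8.15 on the LPS arrays, against 7.70, 7.62, 7.26 and 7.59 on the saline arrays. Every LPS array lay above every saline array, and the change was 0.51 ± 0.12 (SE, adjusted p = 0.0084, limma). With cyclic loess normalisation it was 0.14 and not called (adjusted p = 0.0729). Aldoc, the brain-type aldolase of astrocytes, was 0.53 lower, so that Aldoa over Aldoc within an array was 1.04 ± 0.21 (SE) higher after LPS (adjusted exact permutation p = 0.0286). Astrocyte markers, a list that holds Aldoc, moved the same way as Aldoc, with 7 of 8 lower and a summed level of 15.3 to 20.4 on the LPS arrays against 26.6 to 34.4 on the saline arrays. Of all tested genes, 21.5% were called lower. The part of the astrocyte markers in the Aldoa to Aldoc difference was not tested.

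Gapdh oxidises glyceraldehyde 3-phosphate and reduces NAD+, and is widely used as a reference gene. It read 8.49, 8.41, 8.07 and 8.46 on the LPS arrays, against 7.61, 7.46, 7.11 and 7.40 on the saline arrays. Even the lowest LPS array, at 8.07, lay well above the highest saline array at 7.61. The change of 0.96 ± 0.14 (SE, adjusted p = 0.0013) was larger than that of the other 9 enzymes. All 6 Gapdh probes were called higher, by 0.82 to 1.02, where 25.7% of all tested probes were called higher, 21.8% lower and 47.5% in either direction. Each of these probes also lists a noncoding RefSeq RNA, so RNA of near-identical Gapdh copies could be read with it.

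Pkm encodes pyruvate kinase in its M1 and M2 forms, which makes pyruvate and ATP in the last step. It read 7.65, 7.52, 7.22 and 7.65 on the LPS arrays, against 6.92, 6.75, 6.48 and 6.65 on the saline arrays. The groups did not overlap and the change was 0.81 ± 0.13 (SE, adjusted p = 0.0021). All 4 probes were called higher, by 0.38 to 0.88, and only 1 of them lists RefSeq mRNAs.

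Ldha, the lactate dehydrogenase subunit that favours lactate formation, read 8.04, 7.93, 7.59 and 7.99 on the LPS arrays, against 7.34, 7.21, 6.85 and 7.13 on the saline arrays. Again no LPS array fell within the saline range. The change was 0.76 ± 0.14 (SE, adjusted p = 0.0031) at the brightest probe and 0.90 ± 0.16 at the other, both called higher. Both probes list a noncoding RefSeq RNA besides the mRNAs. Ldhb, the subunit that favours pyruvate formation, was 0.21 lower at an adjusted p of 0.0463, a call lost in 7 of 8 fits that left out 1 array (-0.22 to -0.17, all arrays but saline 3) and a change of 0.01 with scaling to array medians. Within an array Ldha over Ldhb was 0.96 ± 0.12 (SE) higher after LPS, at 2.09, 2.09, 1.68 and 2.09 on the LPS arrays against 1.18, 1.003, 0.85 and 1.06 on the saline arrays (adjusted exact permutation p = 0.0286). With a gene's RefSeq probes or the mean of its probes, Ldha over Ldhb was 0.96 and 1.12, still without overlap, at an adjusted p of 0.0571 over the 4 pairs.

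The probes below read the later enzymes away from their brightest probe and are shown because the rise was present at both places. The Gapdh probe lies at chr6:125113312-125113371 on the minus strand, the Pkm probe spans a splice junction within chr9:59518501-59519397 on the plus strand, and the Ldha probe lies at chr7:54103010-54103069 on the plus strand (mm9, the files' coordinates). Their changes were 0.95 ± 0.12, 0.66 ± 0.11 and 0.90 ± 0.16 (SE). The junction-spanning Pfkfb3 probe, which was not called, lies within chr2:11404189-11405602 on the minus strand.
Gapdh probe A_55_P1994258: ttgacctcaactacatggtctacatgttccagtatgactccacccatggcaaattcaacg
Pkm probe A_55_P2738982: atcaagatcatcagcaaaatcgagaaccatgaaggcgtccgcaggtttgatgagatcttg
Ldha probe A_55_P2141876: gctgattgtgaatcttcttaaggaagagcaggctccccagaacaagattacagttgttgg
Pfkfb3 probe A_52_P362917: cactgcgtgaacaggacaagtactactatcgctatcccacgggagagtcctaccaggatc

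Over all 33 probes, 30 passed the filter on dim probes, and the 3 that did not belong to Hk1, Pfkl and Pfkp. Of the 33 probes 21 list a RefSeq mRNA. Of the tested probes 16 were called higher and 1 lower, and 13 of the 16 belong to Gapdh, Pkm, Ldha and Aldoa. Over all tested probes of the array, 25.7% were called higher and 21.8% lower. Probes of 1 gene share their RNA and are not independent.

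The array that read lowest was nearly always the same. LPS array 3 was the lowest LPS array for 8 of the 10 enzymes, and saline array 3 was the lowest saline array for 8 of 10. These arrays share the third column of the slide and have the highest median signal of their group, at 17.3 for LPS and 21.5 for saline. Within each of the 4 slide columns the change was 0.88 to 1.06 for Gapdh, 0.73 to 0.99 for Pkm, 0.71 to 0.86 for Ldha and 0.44 to 0.58 for Aldoa. Within the 2 slide rows it was 1.08 and 0.85 for Gapdh, 0.88 and 0.73 for Pkm, 0.87 and 0.65 for Ldha, and 0.62 and 0.39 for Aldoa. With array median signal as a covariate the changes were 0.67, 0.54, 0.46 and 0.28, each still called.

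Change depended on brightness across the whole array, and the enzymes called higher are bright. The median change was -0.18 for genes with a normalised signal under 0, and 0.34 for the 902 genes at 6 or more. Of those 902 genes, 56.2% were called higher and 8.65% lower. Among those 902 genes, 56 (6.21%) changed at least as much as Gapdh, 81 (8.98%) as much as Pkm, 99 (11.0%) as much as Ldha and 255 (28.3%) as much as Aldoa. Gpi1 and Hk1, also in that range, lay below its median. Quantile normalisation and cyclic loess bring the median of the bright genes to 0.02 and -0.02. Gapdh then rose by 0.68 and 0.59, Pkm by 0.48 and 0.46 and Ldha by 0.43 and 0.40, all called. Aldoa rose by 0.21 with quantile normalisation. Under the same settings Hk2 fell by 0.25 and 0.27 and Pfkfb3 fell by 0.24 and 0.22, also called, and Hk1 fell by 0.19 with cyclic loess. Scaling also sets the balance over all genes, with 6267 called higher and 4837 lower here, 6994 and 2619 with array medians, 4850 and 7243 with the percentile over probes above background on all arrays, and 3518 and 9377 with scaling to the reference genes. Those settings put the median change of all genes at 0.24, -0.13 and -0.27. The 10 enzymes counted 4 higher and 1 lower here, 5 and 0 with array medians, 4 and 3 with quantile or reference-gene scaling, and 3 and 4 with cyclic loess. The direction given for Hk1, Hk2, Gpi1, Pfkp and Pfkfb3 thus changed with the scaling, while Gapdh, Pkm and Ldha were called higher in all 25 alternatives tried. Which scaling follows the RNA content of the cells was not tested.

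**Figure D3:**
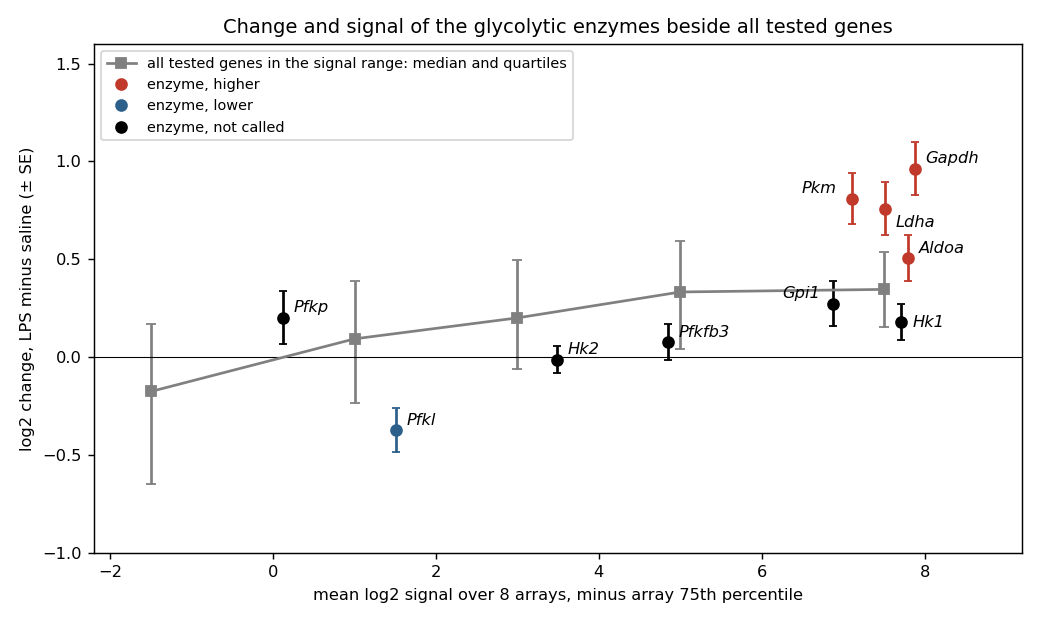
Change (LPS minus saline, log2, ± SE) of each enzyme against its mean normalised signal over the 8 arrays. Grey squares and bars are the median and quartiles of all tested genes in 5 signal ranges and climb from -0.18 to 0.35. Gapdh, Pkm and Ldha lie above the upper quartile of their range, and Hk2 and Pfkfb3 lie below the median of theirs.

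**Figure D4:**
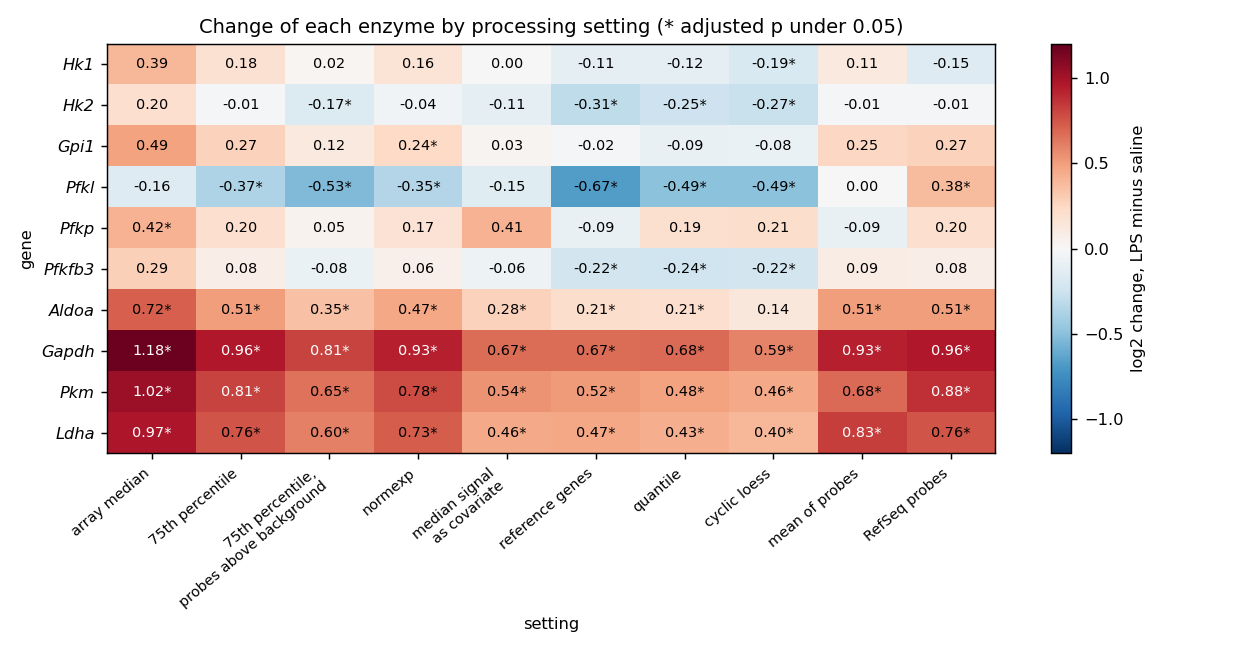
Change (LPS minus saline, log2) of each enzyme under 10 processing settings, with the value in each cell and a star where the adjusted p was under 0.05. Gapdh, Pkm and Ldha are red with a star in every column. Hk1, Hk2, Gpi1, Pfkfb3 and Pfkp take both signs, as does Pfkl once its RefSeq probe is read.

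A log2 difference between enzymes on the same array is free of any constant shift applied to the whole array. It keeps the dependence of change on brightness given above, and Pfkp and Pfkl are much dimmer than Gapdh. Every other enzyme was lower relative to Gapdh after LPS, with no overlap of the groups for any of the 9 (adjusted exact permutation p = 0.0286 for each, the smallest these arrays allow). Gapdh had the largest change of the enzymes, so the direction of all 9 followed from that choice. The 9 tests also share the Gapdh probe. Of all tested genes, 95.9% changed less than Gapdh and so were lower relative to it on average. How many of those genes separated the groups was not counted. Pkm and Ldha kept closest to Gapdh, at -0.15 ± 0.03 and -0.20 ± 0.01 (SE). Aldoa followed at -0.46 ± 0.04 and Gpi1 at -0.69 ± 0.03. Pfkp stood at -0.76, Hk1 at -0.78, Pfkfb3 at -0.89, Hk2 at -0.98 and Pfkl at -1.34. The last place of Pfkl rests on its brightest probe, which fell by 0.37 and lists no RefSeq mRNA. Its other tested probe rose by 0.38. The Ldha to Gapdh log2 difference was -0.48 to -0.45 on the LPS arrays and -0.28 to -0.25 on the saline arrays, the smallest SD of the 9 in both groups. The order of Pkm and Ldha depends on probes, since with RefSeq probes Pkm was at -0.08 (adjusted p = 0.0571, exact permutation), and with the mean of probes Ldha was at -0.10 (adjusted p = 0.114, exact permutation). Pfkp over Gapdh was -0.38 with cyclic loess (adjusted p = 0.0857, exact permutation).

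**Figure D5:**
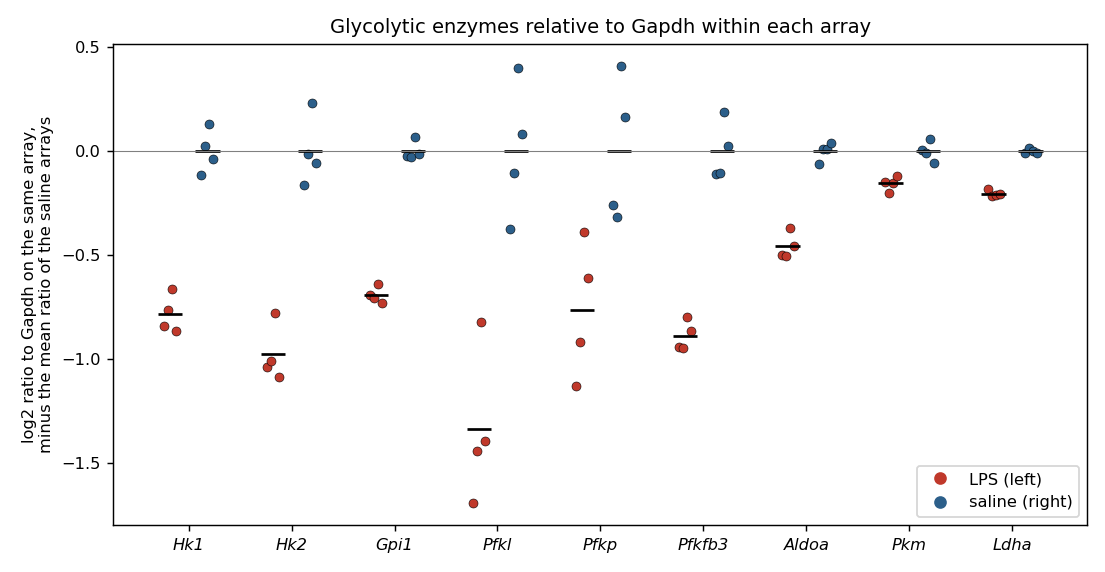
Log2 difference of each enzyme and Gapdh on the same array, minus the mean of that difference over the saline arrays, for the 4 LPS arrays (red, left) and the 4 saline arrays (blue, right), with group means as lines. All LPS arrays lie below all saline arrays for each enzyme, from -0.15 on average for Pkm to -1.34 for Pfkl, each at its brightest probe.

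Gapdh is 1 of the usual reference genes, so 12 others were read beside it. Of these, 7 were called higher and 2 lower, with a median of 0.38. The share called higher was 27.8% over all tested genes and 56.2% over those with a normalised signal of 6 or more. The shares called lower were 21.5% and 8.65%. B2m, the MHC class I light chain, was 0.52 ± 0.11 (SE) higher, but its other probe read -0.18 and was not called. Sdha, Ppia and Ywhaz were 0.43, 0.41 and 0.39 higher, though of the 4 Sdha probes 3 were called higher and 1 lower. Hprt (0.40) lost its call in 6 of 8 fits that left out 1 array, all but saline 1 and LPS 3 (0.33 to 0.43). Rplp0 (0.37) lost it without LPS 1, LPS 2, LPS 4, saline 3 or saline 4 (0.31 to 0.37). Tfrc, the transferrin receptor, was 0.32 lower with the call lost in all such fits but that without saline 3 (-0.36 to -0.27). Tfrc was also not called with array medians (-0.11). Actb (0.14), Tbp (0.17) and Gusb (0.30) were not called, and each of the 3 changed sign under another scaling. Actb was called lower with scaling to the reference genes (-0.15, adjusted p = 0.0241, limma) and with cyclic loess (-0.25, adjusted p = 0.0078). In 1 other alternative it was called higher. Tbp was called higher without LPS 3 (0.21), and Gusb without LPS 3 or saline 1 (0.35 and 0.38). Ppia read 9.11 to 9.45 on the LPS arrays against 8.68 to 9.03 on the saline arrays, without overlap. With cyclic loess the calls of Ppia (0.017), Ywhaz (0.100), Hprt (0.087) and Rplp0 (0.011) were lost.

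The other enzymes of glycolysis were called in both directions, with 6 of 16 tested higher, 7 lower and a median of -0.07. The shares of all tested genes were 27.8% higher and 21.5% lower. Pgk1, which makes ATP right after Gapdh, read 7.11 to 7.66 on the LPS arrays against 6.43 to 6.99 on the saline arrays, a change of 0.76 ± 0.16 (SE, adjusted p = 0.0055). Eno1, the ubiquitous enolase, was 0.72 ± 0.13 higher and called at all 4 of its probes. Pgam1, the phosphoglycerate mutase of most tissues, was 0.53 ± 0.14 higher, a call lost with quantile normalisation (0.17) and with array median signal as a covariate (0.25). Adpgk, which phosphorylates glucose with ADP at the first step, was 0.89 ± 0.10 higher and called at 2 of its 3 probes. Tpi1, which feeds Gapdh, showed 0.44 ± 0.18 and was not called at any of its 4 probes, but was called higher without LPS 3 or saline 1 (0.56 and 0.54). Isozymes of other tissues were lower, namely Pgam2 of muscle by -1.03 ± 0.13 (-0.12 with normexp background correction and an offset of 50, which shrinks dim genes) and Pfkm, the muscle phosphofructokinase, by -0.30 ± 0.08. The Pfkm call was lost without LPS array 1 or LPS array 2 (-0.28 to -0.26). It was also lost with array medians (-0.09) and with the covariate (-0.19). Hk3, the hexokinase of myeloid cells, was at 0.28 ± 0.09 (adjusted p = 0.0352), lost in 6 of 8 fits that left out 1 array (0.24 to 0.29, all but saline 2 and LPS 3), and its sign changed with quantile normalisation. With scaling to array medians, 7 of the 16 were called higher and 1 lower (31.1% and 11.6% of all tested genes).

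Enzymes that set fructose bisphosphate were called higher for 2 of 5 and lower for 1 (27.8% and 21.5% of all tested genes). Their median change was 0.38. Pfkfb4, a kinase of the Pfkfb3 family, read 3.14 to 3.52 on the LPS arrays against 2.56 to 2.94 on the saline arrays and was 0.62 ± 0.12 (SE) higher. Pfkfb1, the liver form, was 0.96 ± 0.13 higher. Fbp1, which reverses the phosphofructokinase step, was 1.26 ± 0.21 lower (adjusted p = 0.0023), or 0.28 lower with the normexp offset. Tigar, a phosphatase of fructose 2,6-bisphosphate, showed 0.38 ± 0.15 and was not called, except without LPS 3 or saline 1 (0.44 and 0.47). So within the Pfkfb family Pfkfb3 was not called where Pfkfb1 and Pfkfb4 were, and the difference between them was not tested.

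Transporters at the ends of the pathway changed in both directions, with 2 of 12 called higher and 4 lower (27.8% and 21.5% of all tested genes). Their median change was -0.07. Slc2a6, a glucose transporter family member of lysosomes, read 4.01 to 4.70 on the LPS arrays against 2.14 to 2.44 on the saline arrays, a change of 2.12 ± 0.15 (SE, adjusted p = 0.0001). Slc2a3, the high-affinity glucose transporter, was 0.65 ± 0.10 higher. Slc2a5, a fructose transporter found on microglia, read 2.32 to 3.69 on the LPS arrays against 4.61 to 4.88 on the saline arrays and was 1.87 ± 0.26 lower. Slc2a4, the insulin-responsive transporter, was 1.38 ± 0.33 lower with overlapping groups, or 0.54 lower with the normexp offset. Slc2a1, the common glucose transporter (0.10 ± 0.12), and Slc16a3, which exports lactate (0.29 ± 0.17), were not called, and both changed sign under another scaling. Slc16a3 was called higher without saline 1 (0.43). With cyclic loess 7 of the 12 were called lower (24.6% of all tested genes).

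The pentose phosphate pathway, which draws on glucose 6-phosphate to make NADPH and ribose, had 8 of 10 genes called higher and none lower, with a median of 0.57. G6pdx, its entry enzyme, was 0.87 ± 0.13 (SE) higher and Prps1, which activates ribose for nucleotides, 0.92 ± 0.12. Over all tested genes 27.8% were called higher and 21.5% lower. Across the scalings 7 or 8 of the 10 pathway genes were called higher and 0 or 1 lower. Proliferation markers moved with this list and with Gapdh, Pkm and Ldha. All 10 of them were called higher, and their summed level was 157 to 226 on the LPS arrays against 92.7 to 103 on the saline arrays. Their part in the enzymes' change was not tested.

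For pyruvate entry into mitochondria, 6 of 13 genes were called higher and 2 lower, with a median of 0.17. The shares of all tested genes, also for the glycogen counts below, were 27.8% higher and 21.5% lower. Pdk3, a kinase that inactivates pyruvate dehydrogenase, was 0.81 ± 0.14 (SE) higher and Dld, a subunit of that complex, 0.47 ± 0.08. Pdk4 was 0.99 ± 0.25 lower (0.28 lower with the normexp offset, and 0.69 lower and not called with the covariate). Pdk2 was 0.35 ± 0.11 lower with the call lost in 6 of 8 fits that left out 1 array, all but saline 1 and LPS 3 (-0.36 to -0.28). Pdk2 was also not called with array medians (-0.13). With scaling to the reference genes the counts for pyruvate entry were 2 higher and 5 lower (15.6% and 41.7% of all tested genes). Of 14 genes of glycogen metabolism, 5 were called higher and 2 lower, with a median of 0.09, and under that scaling 2 higher and 6 lower. Ppp1r3d, a glycogen-targeting phosphatase subunit, and Ugp2, which makes UDP-glucose, were 0.72 ± 0.10 and 0.61 ± 0.11 higher. Pygm, the muscle glycogen phosphorylase, was 1.42 ± 0.13 lower and Ppp1r3c 1.08 ± 0.17 lower (0.45 with the normexp offset). Acod1, the itaconate-producing enzyme that LPS induces in macrophages, was 6.11 ± 0.33 higher.

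Regulators of the pathway were called in both directions. Of 16 genes of the HIF system and other regulators, 3 were called higher and 6 lower, with a median of -0.08, and with scaling to array medians 3 higher and 3 lower. Hif1a, the oxygen-sensitive subunit of HIF-1, read 3.30 to 3.43 on the LPS arrays against 3.42 to 3.85 on the saline arrays, a change of -0.28 ± 0.10 (SE, adjusted p = 0.0461). That call was lost in 7 of 8 fits that left out 1 array, all but saline 3 (-0.30 to -0.21). Hif1a was also not called with array medians (-0.07). Epas1, the HIF-2 subunit, was at -1.02 ± 0.32, lost without LPS 1, LPS 2, LPS 4, saline 3 or saline 4 (-0.99 to -0.86). Epas1 was also not called with the covariate (-0.27). Egln3, a HIF hydroxylase and HIF target, was 1.23 ± 0.21 lower (0.67 with the normexp offset). Myc, another activator of these enzymes, showed 0.13 ± 0.10 and was not called. Mlx, the partner of the glucose-sensing factor ChREBP, was 0.59 ± 0.10 higher at 1 probe, while its other tested probe read -0.07 and was not called. Mtor was 0.30 ± 0.07 higher, a call lost with the percentile over probes above background (0.15) and with scaling to the reference genes (0.0098). Among 16 other HIF targets 4 were called higher and 5 lower, with a median of -0.14. Higd1a, a mitochondrial hypoxia protein, was 0.85 ± 0.13 higher, while Vegfa, the vascular growth factor, was 0.96 ± 0.16 lower (0.57 with the normexp offset) and called at 3 of its 4 probes. Ndrg1 was at -0.97 ± 0.32, lost in 6 of 8 fits that left out 1 array, all but saline 2 and LPS 3 (-1.04 to -0.81). Ndrg1 was also not called with the covariate (-0.28). Across the 9 lists other than the enzymes themselves, 42 of 113 genes were called higher and 29 lower. Of all tested genes, 27.8% were called higher and 21.5% lower.

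Markers of the cells in the sorted fraction were read beside the enzymes, as summed signals relative to the 75th percentile. For comparison with the counts below, 27.8% of all tested genes were called higher and 21.5% lower. Monocyte markers had 7 of 8 called higher and sums of 272 to 393 on the LPS arrays against 171 to 197 on the saline arrays. Neutrophil markers had 3 of 10 higher (169 to 299 against 71.1 to 166), and T, B and NK cell markers 4 of 7 higher and 1 lower (3.82 to 4.88 against 1.97 to 3.14). Microglial markers had 0 of 10 higher and 5 lower (1563 to 1743 against 1574 to 1869), and border macrophage markers 3 of 7 lower (326 to 447 against 484 to 617). Some of these counts changed with the scaling. Microglial markers called lower numbered 2 with array medians and 9 with scaling to the reference genes. For T, B and NK cell markers called higher the numbers were 5 and 2, and for monocyte markers 7 and 6. Oligodendrocyte lineage (6 of 8), endothelial (7 of 8) and erythroid markers (4 of 5) were lower, neurons had 1 higher and 1 lower of 7, and no choroid plexus marker of 5 was called. Of the microglial, monocyte and neutrophil markers, Ly6g was well above background on 4 LPS and 2 saline arrays and the others on all 8. The part of these markers in the change of the enzymes was not tested.

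The promoters of all 10 enzymes were found among RefSeq start sites of build GRCm38.p6, as 16 windows of 250 bases before a start site. HIF-1 binds a core of ACGTG or GCGTG, searched on both strands, so that CACGT and CACGC count too and the palindrome CACGTG counts in both orientations. ACGTG or its complement stood in 7 of the 16 windows (43.8%), against 16.6% of 32851 windows of the same length before all start sites. Either core stood in 12 of the 16, against 38.6% of all windows. The 7 windows belong to Hk2, Pfkfb3, Aldoa, Pkm and Ldha, and the 2 of Aldoa overlap and share 1 match. These 5 genes include enzymes called higher and enzymes not called. A match of these letters describes the window and shows no binding. The windows of Ldha (called higher) and of Hk2 (not called) are shown to compare genes with matches and different responses, at chr7:46845554-46845803 on the plus strand and chr6:82774455-82774704 on the minus strand, with matches in capitals. In Ldha they begin 145, 144, 48, 47 and 34 bases before the start site, and in Hk2 226 and 52 bases before it.
Ldha: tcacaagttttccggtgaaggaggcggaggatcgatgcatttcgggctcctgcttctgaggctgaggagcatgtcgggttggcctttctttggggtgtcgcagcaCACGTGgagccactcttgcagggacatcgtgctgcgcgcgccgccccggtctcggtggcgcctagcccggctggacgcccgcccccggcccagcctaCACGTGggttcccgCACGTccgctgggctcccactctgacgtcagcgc
Hk2: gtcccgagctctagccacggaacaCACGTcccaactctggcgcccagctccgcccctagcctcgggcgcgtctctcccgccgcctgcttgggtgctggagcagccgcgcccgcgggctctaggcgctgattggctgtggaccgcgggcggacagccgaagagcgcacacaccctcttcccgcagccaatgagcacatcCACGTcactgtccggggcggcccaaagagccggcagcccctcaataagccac

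Genes whose signal followed an enzyme most closely over the 8 arrays are given as a description, since the arrays share scaling and depth. Closest to Ldha were an unnamed transcript (Pearson r = 0.9997), Mpv17l2 (0.999) and Cox7c (0.999), the last a subunit of cytochrome c oxidase. Closest to Hk2 were Exoc7 (0.990), Map3k10 (0.988) and Cdc42se1 (0.985). Closest to Pfkfb3 was Asb4 (0.970), followed by features named only by a genome interval (0.958 and 0.956). After the group means were taken out, r was 0.993 to 0.999 for the 3 of Ldha and 0.988 to 0.990 for those of Hk2.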

How the data were processed

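RNA of 8 tubes of sorted cells was hybridised to 1 Agilent array each, with 4 arrays per group. Agilent Feature Extraction 12.0.3.1 read the spots, per the submitters' processing notes, and the deposited files hold its intensity values, detrended for background and, per the file headers, not scaled across arrays. A deposited table of the authors holds log2 values in the same direction. It correlated at 0.9992 or more with the scanner values once these were scaled to the 75th percentile and centred per probe (column medians -0.073 to 0.077). The reason for centring is not stated.

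Control and outlier spots were left out, spots of a probe averaged, and 6 of 56605 probes without a usable spot dropped. No spot was saturated. Names came from a RefSeq table of GRCm38.p6 (35405 probes by accession, 9124 by symbol, 25 by synonym), and 12051 kept the file's name. Values are log2 processed signals less the array's 75th percentile. A probe had to be well above background on 4 of 8 arrays or more, and the brightest probe stood for its gene. Groups were compared with limma 3.58.1 in R 4.3.3 (lmFit, eBayes, Benjamini-Hochberg), tested on simulated data, and within-array differences with exact two-sided permutation tests. The number of arrays limits precision, and p-values measure the spread between pools. Members and lists were chosen with earlier results of these data known. Named genes are all members, up to 2 risen and 2 fallen of each other list, all reference genes and some named in advance. Alternatives covered scaling, background, dim probes, probe choice, variance, array weights, slide blocks, a covariate, the authors' table, and fits without 1 array. Protein comparisons were not made, and 3 of the genes this rule names are not reported here.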

Additional observations from a re-analysis of the deposited data

Results flagged for a closer look

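In 46 groups of 4 arrays, the lowest and highest array were checked with Dixon's ratio of the gap to the neighbour over the group's range. Its 95% limit, which chance passes in about 1 of 20 groups, was passed 2 times. Ldha minus Ldhb on LPS array 3 was 1.68, where the other LPS arrays read 2.09. Gpi1 minus Gapdh on saline array 3 was -0.586, where the other saline arrays read -0.67 to -0.68.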

How the results depend on the processing

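The labels give no replicate numbers to pair samples by. With slide column as a block, which pairs each LPS array with the saline array beside it, Hk1 (adjusted p = 0.0288) and Gpi1 (0.0096) were called higher, and the other 8 enzymes kept their calls. The 25 alternatives left Gapdh (0.59 to 1.18), Pkm (0.46 to 1.02) and Ldha (0.40 to 0.97) called higher, and Aldoa (0.14 to 0.72) in all but cyclic loess, which like the preference for RefSeq probes was chosen after seeing the data. Enzymes called higher numbered 3 to 6, but those called lower, 1 in the report, were 0 with array medians, the covariate, the mean or median of probes, or RefSeq probes, 2 with the percentile over probes above background, 3 with quantile or reference-gene scaling and 4 with cyclic loess. Leaving out 1 array gave 4 to 6 enzymes higher and 0 to 1 lower, 32 to 49 list genes higher and 19 to 27 lower, and 4934 to 7325 genes higher and 3690 to 5937 lower over all. Of the 113 list genes, 42 were higher and 29 lower in the report, 13 were lower with array medians, and 26 were higher and 48 lower with reference-gene scaling. Over all genes, 2619 were lower with array medians, 3518 higher and 9377 lower with reference-gene scaling, and 4132 higher with the covariate.

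Changes that took the other sign were as follows. With reference-gene scaling they were Hk1 -0.11, Gpi1 -0.021, Pfkp -0.092, Pfkfb3 -0.22, Actb -0.15, Tbp -0.13, Hk3 -0.0095, Myc -0.16 and Slc2a1 -0.19. With quantile normalisation they were Hk1 -0.12, Gpi1 -0.090, Pfkfb3 -0.24, Actb -0.018, Gusb -0.070, Hk3 -0.083, Slc16a3 -0.00083 and Slc2a1 -0.14. With cyclic loess they were Hk1 -0.19, Gpi1 -0.075, Pfkfb3 -0.22, Actb -0.25, Gusb -0.029, Hk3 -0.038 and Slc2a1 -0.16. With the percentile over probes above background they were Pfkfb3 -0.080, Actb -0.014, Myc -0.026 and Slc2a1 -0.052. With array medians they were Hk2 0.20 and Ldhb 0.0094. With the covariate they were Pfkfb3 -0.060, Actb -0.013 and Slc16a3 -0.013. Hk2 was 0.017 with array weights and from -0.038 to 0.016 without 1 array. Probe choice gave Hk1 -0.15 and Pfkl 0.38 (RefSeq probes), Pfkl 0.0016 and Pfkp -0.093 (mean of probes), and Pfkl 0.0016 and Pfkp -0.100 (median of probes).

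Of the differences within an array, Hk2 minus Hk1 (-0.22 to -0.16 without 1 array) was 0.14 with RefSeq probes and -0.13 with the mean of probes. Pfkp minus Pfkl (0.50 to 0.62) was -0.17 and -0.095. Aldoa minus Aldoc (0.92 to 1.17) was 1.04 and 1.06, and Ldha minus Ldhb (0.91 to 1.07) was 0.96 and 1.12. The adjusted p was above 0.05 for each. With RefSeq probes, however, the Aldoa and Ldha pairs had the same values on every array as in the report. Their unadjusted p stayed at 0.0286 (exact permutation), and only the adjustment over the 4 pairs raised it to 0.0571. Against Gapdh, Pkm with RefSeq probes (-0.084), Ldha with the mean of probes (-0.10) and Pfkp with cyclic loess (-0.38) missed the threshold. The cause of the other shifts was not tested, except that the probe changes where the setting names it. Signal over background limits the dim probes of Hk1 and Pfkp.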
